A study of Homo sapiens with 45 samples.

Results

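The azacytidine (azaC) response of RNF25 GCN2 double knockout (DKO) cells was compared with that of RNF25 knockout (KO) cells, gene by gene, as the difference of 2 differences: azaC-treated minus untreated in the DKO, minus azaC-treated minus untreated in RNF25 KO. The comparison rests on 12 of the 45 polyA mRNA libraries of the series, which are all those of the 4 groups RNF25 GCN2 DKO with azaC, RNF25 GCN2 DKO untreated, RNF25 KO with azaC and RNF25 KO untreated, with 3 libraries in each. All cells were HAP1, an established near-haploid human line derived from KBM-7. Treated cells received 5 uM azaC for 4 h. Both groups of lines lack RNF25 per the labels, so the comparison sets cells without GCN2 against cells with GCN2, neither having RNF25. The labels do not say whether each genotype is 1 clone. They call the libraries biological replicates and say nothing on separate cultures, so p-values measure the spread between these libraries, which may be technical. A further 12 libraries, GCN2 KO and AAVS1 cells with and without the same azaC treatment, gave a second GCN2 comparison on cells that have RNF25. AAVS1 names a genomic site that is commonly edited as a neutral control.

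GCN2, made from the gene EIF2AK4, is 1 of the kinases that phosphorylate the translation initiation factor eIF2. GCN2 is activated by uncharged tRNA and by stalled or collided ribosomes, and phosphorylated eIF2 lowers general initiation while it favours translation of the transcription factor ATF4. ATF4, with partners of the C/EBP family such as CHOP (gene DDIT3), raises genes for amino acid uptake, amino acid synthesis, tRNA charging and stress signalling. This program is called the integrated stress response. RNF25 is a ubiquitin ligase that acts at stalled ribosomes. AzaC is a cytidine analogue that is built into RNA and DNA.

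The 12 libraries held 1278486 to 2478875 counts, and the median tested gene had 31 to 66 counts in a library. Of the genes in the table, 11078 had enough counts to be tested. Levels are given as CPM, the count scaled to the library's size as set by TMM over the tested genes. EIF2AK4 had 35.5, 47.8 and 22.4 CPM in azaC-treated DKO libraries and 38.9, 43.6 and 36.2 CPM in untreated ones, against 55.6, 51.4 and 39.4 CPM in azaC-treated RNF25 KO libraries and 46.7, 64.7 and 64.8 CPM in untreated ones. In GCN2 KO cells it had 28.4, 20.0 and 18.3 CPM with azaC and 24.7, 20.9 and 20.2 CPM untreated, below each library labelled DKO except azaC replicate 3, which lay within the range of azaC-treated GCN2 KO. Every untreated DKO library lay below every untreated RNF25 KO library for EIF2AK4, while the azaC-treated groups of these genotypes overlapped. Set beside GCN2 KO, the transcript therefore gives no check of the DKO label, which stands in this text as the label gives it, also wherever a direction is drawn from it. RNF25 had 0 to 4 counts in each of the 12 libraries and could not be tested. Of the markers of other cell types, 1 of 10 haematopoietic, 1 of 8 epithelial, 1 of 6 neural and 2 of 7 fibroblast genes could be tested. The haematopoietic markers PTPRC, ITGAM, CD33, MPO and CD34 were at 0 in all 12 libraries, and the 10 together had 1 to 3 counts per library in azaC-treated DKO, 2 to 15 in untreated DKO, 2 to 8 in azaC-treated RNF25 KO and 0 to 9 in untreated RNF25 KO. AzaC-treated RNF25 KO replicate 2 stood apart from the rest. It had the highest total, 3.14% of its counts on mitochondrial genes where the median library of the series had 7.08%, and the highest slope of counts on transcript GC content among the 12. Counts of bulk RNA cannot tell a change in every cell from a change in some of the cells.

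The DKO libraries showed no gene whose level passed the test between azaC and no azaC, while 52 genes passed in RNF25 KO and 13 genes had a smaller azaC response in the DKO than in RNF25 KO. All 13 belong to the integrated stress response, amino acid supply or endoplasmic reticulum (ER) lists. The 21 lists used here hold 345 of the 11078 genes tested. They were chosen with earlier results of these data known, so nothing is read from this membership. For 13 of 13 the azaC-treated DKO libraries all lay below the azaC-treated RNF25 KO libraries, as for 7.75% of all genes tested. These libraries are part of the test that chose the 13, so nothing is read from that count. Tests were edgeR quasi-likelihood F tests on counts, fitted to all libraries of the series, with Benjamini-Hochberg adjustment over all 11078 genes within a comparison and a threshold of 0.05 for the adjusted p. The difference of responses was called for 13 genes, 0.117% of those tested, with 13 lower in the DKO and 0 higher. At an unadjusted p under 0.05, 388 genes (3.5%) were lower and 222 (2%) higher. The azaC response in RNF25 KO was called for 52 genes, 0.469%, of which 50 were higher with azaC and 2, HSPA8 and AGPAT5, lower. That count was 29 without azaC-treated RNF25 KO replicate 2 and 90 without replicate 1 of the same group. In the DKO it was called for 0 genes, 0%, in edgeR and also in DESeq2 and limma-voom, with 291 genes at an unadjusted p under 0.05.

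The 50 genes higher with azaC in RNF25 KO were read in the DKO libraries. These libraries did not enter the RNF25 KO log2 response. They did share the filter, scaling and spread estimate of the fit that chose the 50. Their median response was 0.12 (log2, azaC over untreated) in the DKO and 1.57 in RNF25 KO, where the second value is the one they were chosen by. In the DKO 35 of the 50 responses were above 0, where 50.1% of all genes tested were, and they ran from −0.57 for SLC7A11 to 1.49 for GDF15. SLC7A11, JUN, ATF3 and ISL2 had an unadjusted p under 0.05 in the DKO, the first lower and the other 3 higher with azaC, and none passed after adjustment. JUN had 64.3, 43.6 and 16.8 CPM in azaC-treated DKO libraries and 10.9, 18 and 27.9 CPM in untreated ones, a response of 1.12 ± 0.49 (adjusted p = 1), and these groups overlapped. ATF3 had 14.8, 27.4 and 15.4 CPM and 6.15, 12.3 and 6.35 CPM there, a response of 1.16 ± 0.49 (adjusted p = 1).

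**Figure D1:**
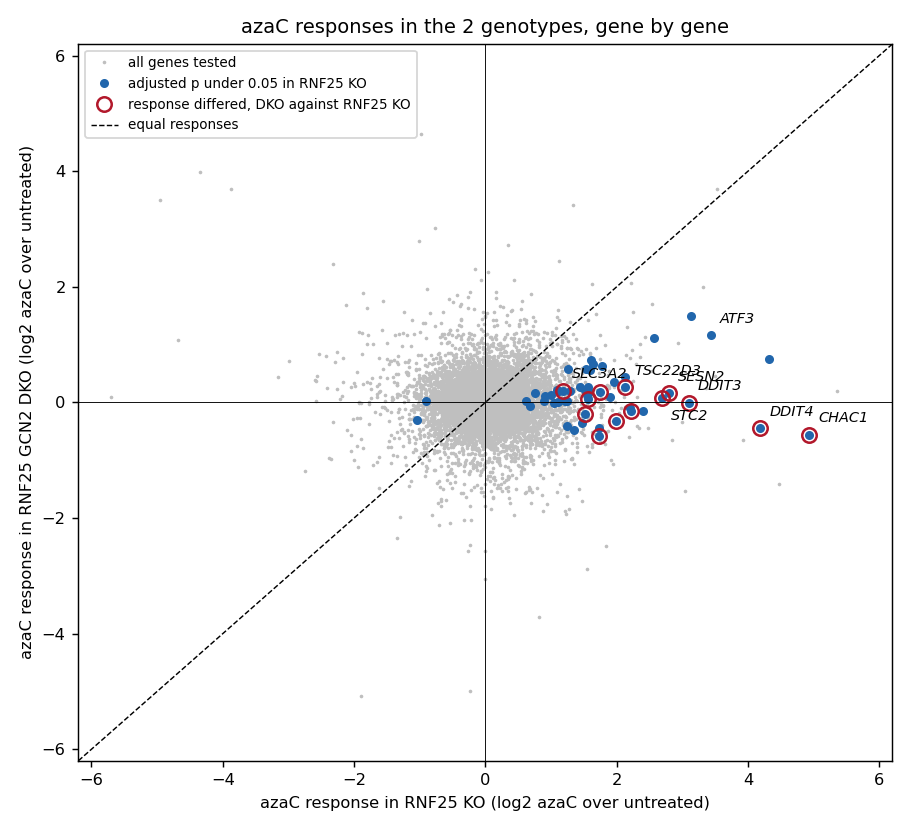
AzaC response of each tested gene in RNF25 GCN2 DKO (y axis) against that in RNF25 KO (x axis), both as log2 of azaC over untreated; blue points passed in RNF25 KO, red rings mark the 13 genes whose responses differed, and the dashed line marks equal responses. The ringed genes lie between −0.57 and 0.26 on the y axis and far to the right of the dashed line, with CHAC1 and DDIT4 the farthest.

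Promoters of the 13 genes were searched for the binding element of ATF4 and C/EBP partners, TGATGNAA, and for the ER stress element, a CCAAT box and CCACG set 9 bases apart, on both strands. The windows run from 250 bases before to 50 after an annotated start (RefSeq, GRCh38.p14), and 12 of the 13 genes have 20 such windows between them, while SLC7A11 has none. TGATGNAA was present in 3 of the 20 windows, 1 each of CHAC1, HERPUD1 and SLC3A2, in 3.62% of all 35116 windows and in 1.96% of the 12253 windows of tested genes. The ER stress element was present in 1 of the 20 windows, of XBP1, in 0.0769% of all windows and in 0.131% of those of tested genes. The 250 bases before the RefSeq start of CHAC1 (chr15:40953221-40953470, plus strand), HERPUD1 (chr16:56931892-56932141, plus strand) and XBP1 (chr22:28800570-28800819, minus strand) are shown because they hold these elements before the RefSeq starts of genes whose responses differed. They are written 5′ to 3′ on the strand of the gene with the element in capitals. In CHAC1 and HERPUD1 the element is read on the opposite strand, and it begins 209 and 176 bases before the start. In XBP1 it begins 52 bases before the start. In SLC3A2 it lies after the start and is not shown. The CHAC1 window lies wholly within the gene position given for CHAC1 below, which is from GENCODE, so its element is upstream of the RefSeq start alone. A match describes these letters and no binding was measured.
CHAC1: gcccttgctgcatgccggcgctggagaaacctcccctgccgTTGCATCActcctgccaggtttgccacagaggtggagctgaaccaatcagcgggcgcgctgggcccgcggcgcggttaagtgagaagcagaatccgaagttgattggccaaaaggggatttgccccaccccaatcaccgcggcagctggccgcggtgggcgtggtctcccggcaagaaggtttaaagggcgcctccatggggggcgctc
HERPUD1: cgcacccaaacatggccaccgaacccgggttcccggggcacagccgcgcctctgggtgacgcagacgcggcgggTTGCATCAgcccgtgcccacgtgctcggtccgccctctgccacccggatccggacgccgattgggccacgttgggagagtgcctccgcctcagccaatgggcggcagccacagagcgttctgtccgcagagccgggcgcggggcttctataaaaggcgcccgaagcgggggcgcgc
XBP1: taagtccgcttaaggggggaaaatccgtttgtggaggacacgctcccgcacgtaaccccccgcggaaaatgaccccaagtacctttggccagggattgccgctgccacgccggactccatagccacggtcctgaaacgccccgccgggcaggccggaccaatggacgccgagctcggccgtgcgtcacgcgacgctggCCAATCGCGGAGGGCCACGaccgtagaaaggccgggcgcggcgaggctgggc

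Among transcription factors of the stress response, DDIT3 and CEBPB had smaller azaC responses in the DKO. DDIT3 encodes CHOP, a C/EBP-family partner of ATF4 (ENSG00000175197, chromosome 12, 57516588 to 57521737, minus strand, in GRCh38 as are all gene positions here). It had 13.3, 24.6 and 5.60 CPM in azaC-treated DKO libraries and 16.4, 13.7 and 14 CPM in untreated ones, against 137, 216 and 163 CPM in azaC-treated RNF25 KO libraries and 21.7, 22.4 and 16.2 CPM in untreated ones. The azaC-treated RNF25 KO libraries were the only ones above 100 CPM, and the 3 other groups overlapped one another. The difference of responses was −3.11 ± 0.46 (log2 ± SE, as in all differences that follow, n = 3 libraries per group, adjusted p = 6.47e-05). CEBPB encodes the transcription factor C/EBP beta (ENSG00000172216, chromosome 20, 50190734 to 50192689, plus strand). It had 11.8, 9.85 and 6.30 CPM in azaC-treated DKO libraries and 7.51, 12.8 and 10.2 CPM in untreated ones, against 74.9, 95.9 and 55.9 CPM in azaC-treated RNF25 KO libraries and 9.66, 18 and 20.6 CPM in untreated ones. Again the azaC-treated RNF25 KO libraries stood above every other. The difference was −2.36 ± 0.49 (adjusted p = 0.0218), and it did not pass in 6 of the 12 fits that left out 1 library, with adjusted p up to 0.293 without untreated DKO replicate 2. Of the exon length of DDIT3 and CEBPB, 31.6% and 11.8% lie under exons of the opposite strand, and the strand setting of the counting is not given in the sources used here.

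Of 12 transcription factors listed 11 were tested, 2 were lower in the difference and 9 did not pass, with a median of −0.79 where that of all genes was −0.0034. ATF4 itself had 441, 421 and 494 CPM in azaC-treated DKO libraries and 445, 346 and 459.6 CPM in untreated ones, against 726, 1126 and 935 CPM in azaC-treated RNF25 KO libraries and 470.2, 524 and 497 CPM in untreated ones. All 3 azaC-treated RNF25 KO libraries lay above all 9 others. The difference of its responses was −0.79 ± 0.28 and did not pass (adjusted p = 0.784), while azaC-treated DKO cells were lower than azaC-treated RNF25 KO cells by the direct comparison (−1.04 ± 0.20, adjusted p = 0.00146). ATF3, an ATF4-induced repressor, had 154, 141 and 129 CPM in azaC-treated RNF25 KO libraries and 3.22, 16.8 and 17.4 CPM in untreated ones. Beside the DKO values above, its difference was −2.28 ± 0.66 (adjusted p = 0.43). JDP2, a repressor that binds AP-1 sites, had 3.70, 8.44 and 8.39 CPM in azaC-treated DKO libraries and 5.46, 12.3 and 10.2 CPM in untreated ones, against 38.6, 59.4 and 25.4 CPM in azaC-treated RNF25 KO libraries and 23.4, 15.5 and 14.3 CPM in untreated ones. It was lower in azaC-treated DKO than in azaC-treated RNF25 KO cells (−2.58 ± 0.40, adjusted p = 5e-05), and its difference of responses was −1.71 (adjusted p = 0.784). NUPR1 had 0, 1 and 1 counts in azaC-treated DKO libraries and 0, 0 and 4 in untreated ones, against 7, 10 and 7 in azaC-treated RNF25 KO libraries and 0, 1 and 0 in untreated ones. These counts are too low for a fold. CEBPG, CEBPA, ATF5, ATF2 and CEBPD had differences of −0.69, −0.39, 0.25, −0.0097 and 0.90 and did not pass.

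Among effectors, 5 genes had smaller azaC responses in the DKO, and 2 of them inhibit mTORC1, the kinase complex that promotes growth. SESN2, a sestrin that inhibits mTORC1 when leucine is low (ENSG00000130766, chromosome 1, 28259527 to 28282491, plus strand), had 60.6, 59.8 and 74.2 CPM in azaC-treated DKO libraries and 49.2, 64.4 and 60.3 CPM in untreated ones, against 470.2, 511 and 473 CPM in azaC-treated RNF25 KO libraries and 67.6, 70.9 and 71 CPM in untreated ones. Each azaC-treated RNF25 KO library was more than 6 times any other library. The difference of responses was −2.64 ± 0.25 (adjusted p = 2.25e-09), with the smallest p of all genes. DDIT4, which inhibits mTORC1 through the TSC complex (ENSG00000168209, chromosome 10, 72273920 to 72276036, plus strand), had 12.6, 14.8 and 13.3 CPM in azaC-treated DKO libraries and 22.5, 18 and 15.2 CPM in untreated ones, against 302, 377 and 272 CPM in azaC-treated RNF25 KO libraries and 13.7, 31.1 and 6.86 CPM in untreated ones. The azaC-treated DKO libraries lay below all untreated DKO libraries and within the range of untreated RNF25 KO. The difference was −4.63 ± 0.56 (adjusted p = 7.42e-07), and 41.2% of its exon length lies under exons of the opposite strand.

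CHAC1, an enzyme that breaks down glutathione (ENSG00000128965, chromosome 15, 40952962 to 40956519, plus strand), had 1.48, 7.03 and 2.10 CPM in azaC-treated DKO libraries and 2.73, 9.47 and 2.54 CPM in untreated ones, against 165, 179.8 and 179 CPM in azaC-treated RNF25 KO libraries and 8.05, 8.08 and 1.25 CPM in untreated ones. It was near absent in every library but the 3 of azaC-treated RNF25 KO. The difference of −5.48 ± 0.92 (adjusted p = 0.00056) was the largest among the 13 genes and had the largest SE. It rests on 2, 10 and 3 counts in azaC-treated and 4, 20 and 4 in untreated DKO libraries, and without untreated DKO replicate 2 it was −4.51 and did not pass (adjusted p = 0.419). STC2 encodes stanniocalcin 2, a hormone-like glycoprotein released from cells (ENSG00000113739, chromosome 5, 173314713 to 173329503, minus strand). It had 46.6, 68.9 and 64.4 CPM in azaC-treated DKO libraries and 61.5, 69.6 and 39.4 CPM in untreated ones, against 447, 449 and 398 CPM in azaC-treated RNF25 KO libraries and 60.4, 72.1 and 67.3 CPM in untreated ones. The difference was −2.62 ± 0.35 (adjusted p = 6.49e-06). TSC22D3, a leucine zipper protein first known as induced by glucocorticoids (ENSG00000157514, chromosome X, 107713221 to 107777342, minus strand), had 127, 65.4 and 76.3 CPM in azaC-treated DKO libraries and 80.6, 48.3 and 96.5 CPM in untreated ones, against 487, 241 and 371 CPM in azaC-treated RNF25 KO libraries and 93.4, 77.1 and 79.8 CPM in untreated ones. Its azaC-treated RNF25 KO libraries spread over about a 2-fold range and still lay above all others. The difference was −1.87 ± 0.39 (adjusted p = 0.0222), and it did not pass in 7 of the 12 fits without 1 library (adjusted p up to 0.197, without untreated DKO replicate 3).

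Of 27 effectors listed 20 were tested, 5 were lower and 15 did not pass, with a median difference of −1.02. The 20 tested effectors averaged −0.01 ± 0.06 (log2 CPM over untreated RNF25 KO, SD over 3 libraries) in azaC-treated DKO and −0.11 ± 0.08 in untreated DKO, against 1.49 ± 0.10 in azaC-treated RNF25 KO and 0 ± 0.13 in untreated RNF25 KO, whose mean is 0 by construction. TRIB3, a pseudokinase induced by CHOP and ATF4, had 16.3, 17.6 and 14.7 CPM in azaC-treated DKO libraries and 13, 18.9 and 12.7 CPM in untreated ones, against 66, 119 and 41.9 CPM in azaC-treated RNF25 KO libraries and 15.3, 21.1 and 24.3 CPM in untreated ones. Its difference was −1.80 ± 0.48 and did not pass (adjusted p = 0.3). GDF15, a secreted stress hormone, had 6, 7 and 11 counts in azaC-treated DKO libraries and 0, 0 and 10 in untreated ones, against 51, 88 and 71 in azaC-treated RNF25 KO libraries and 0, 2 and 18 in untreated ones. Untreated replicate 3 of both genotypes held nearly all of its untreated counts, and its difference was −1.65 ± 1.38 (adjusted p = 0.943). PPP1R15A, the regulatory subunit that directs eIF2 dephosphorylation, had 25.9, 16.9 and 28 CPM in azaC-treated DKO libraries, against 57.1, 51.4 and 31.1 CPM in azaC-treated RNF25 KO libraries. Its difference was −0.97 ± 0.56 (adjusted p = 0.918). GADD45A, a protein of growth arrest and DNA damage, had 27.3, 13.4 and 33.6 CPM in azaC-treated DKO libraries, against 103, 51.8 and 79.4 CPM in azaC-treated RNF25 KO libraries. It was lower in azaC-treated DKO than in azaC-treated RNF25 KO cells (−1.64 ± 0.33, adjusted p = 0.00476), and its difference of responses was −0.87. The direct value is larger in size because the untreated level of GADD45A was also lower in the DKO. VEGFA, a growth factor for blood vessels, had 14.8, 14.8 and 11.9 CPM in azaC-treated DKO libraries, against 64.5, 48.6 and 55.3 CPM in azaC-treated RNF25 KO libraries, and a difference of −1.83 ± 0.50 (adjusted p = 0.378). KLHL24, EIF4EBP1, the repressor 4E-BP1 of cap-binding eIF4E, and VLDLR, a lipoprotein receptor, had −1.62, −1.08 and −0.93. CCPG1, NIBAN1, XPOT, RIT1, UPP1, SQSTM1 and ERO1A ran from −0.45 to 0.36. CDKN1A, NDRG1, SLFN5, LURAP1L and ADM2 had at most 10 counts in any of the 12 libraries, FGF21 and INHBE had 0, and these 7 were not tested.

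**Figure D2:**
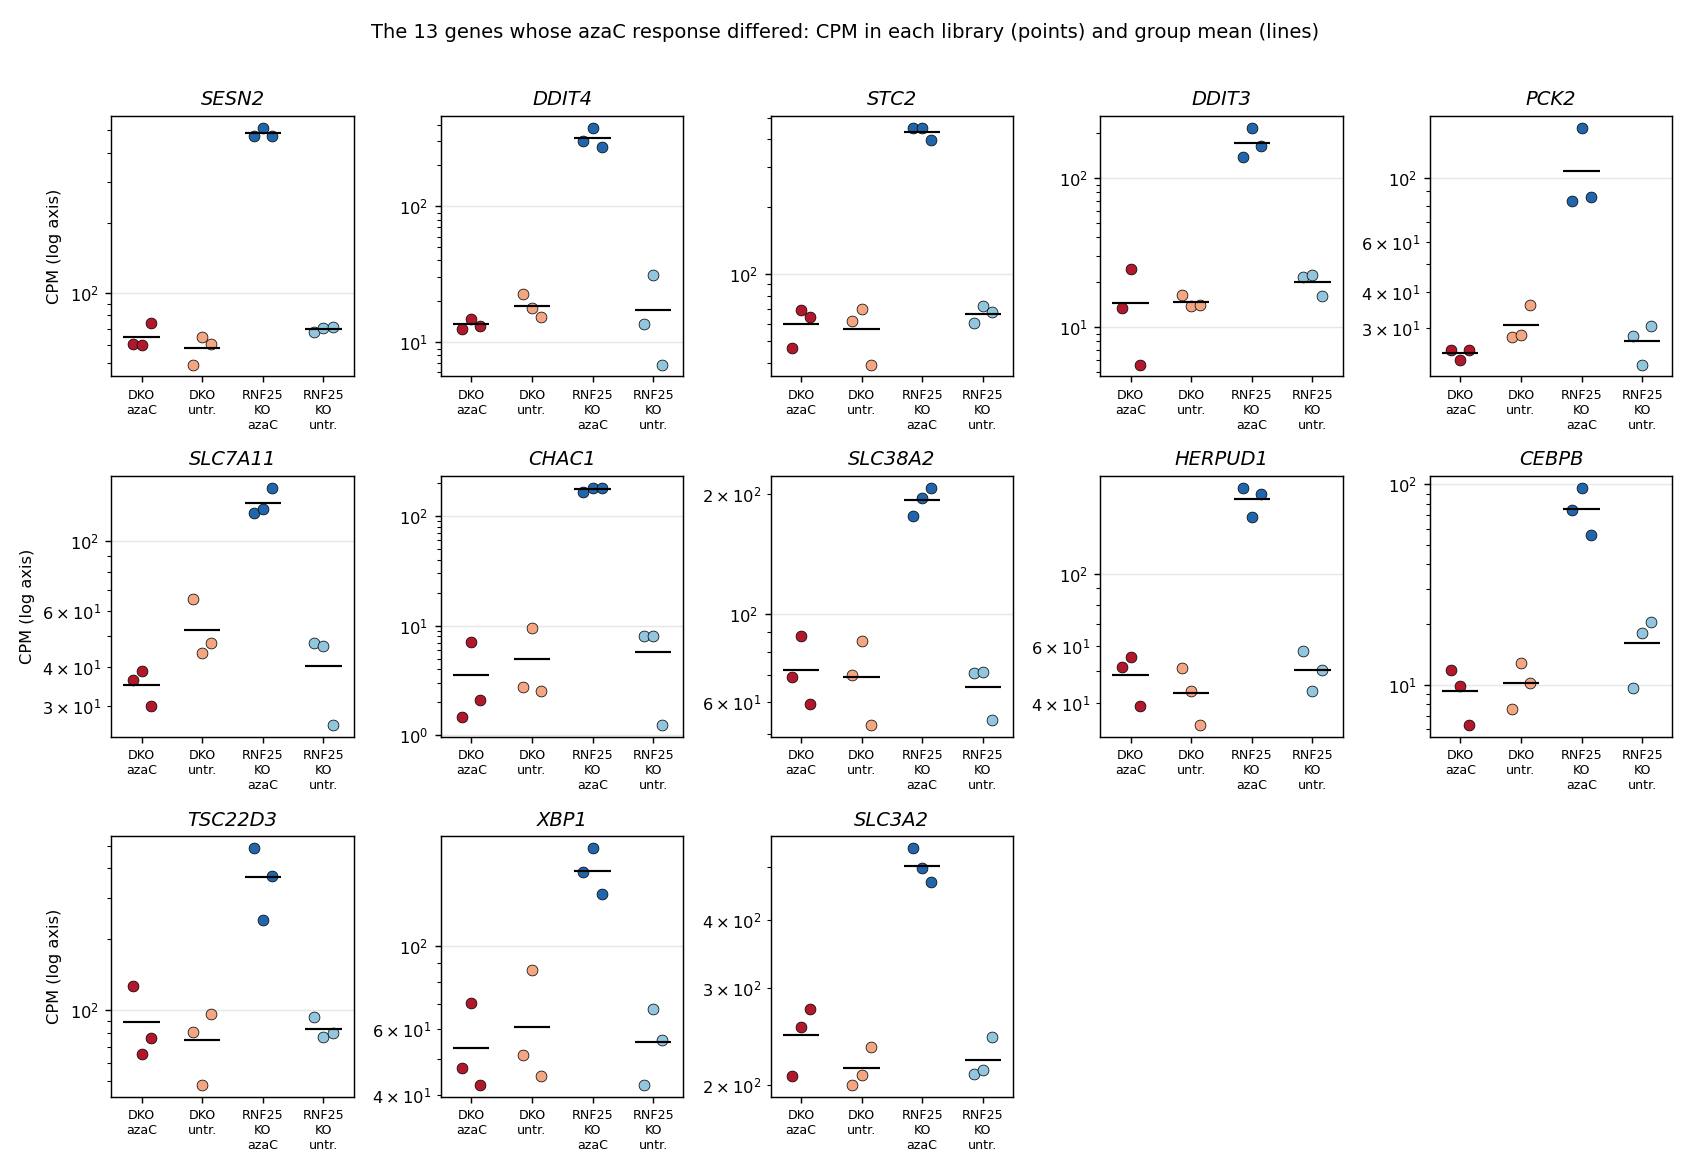
Level in CPM (log axis) of the 13 genes whose azaC response differed, in each library (points) and as group means (lines), for azaC-treated and untreated DKO (red and orange) and azaC-treated and untreated RNF25 KO (dark and light blue). In each panel the 3 azaC-treated RNF25 KO libraries lie above all 9 others, and the azaC-treated DKO libraries overlap the untreated RNF25 KO libraries. For DDIT4, PCK2 and SLC7A11 the azaC-treated DKO libraries lie below all untreated DKO libraries.

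Among genes of amino acid synthesis and carbon supply PCK2 had a smaller azaC response in the DKO. PCK2, the mitochondrial enzyme that makes phosphoenolpyruvate from oxaloacetate (ENSG00000100889, chromosome 14, 24094053 to 24110598, plus strand), had 25.1, 23.2 and 25.2 CPM in azaC-treated DKO libraries and 28, 28.4 and 36.2 CPM in untreated ones, against 83.1, 149 and 85.8 CPM in azaC-treated RNF25 KO libraries and 28.2, 22.4 and 30.5 CPM in untreated ones. The azaC-treated DKO libraries lay below all 3 untreated DKO libraries and within the range of untreated RNF25 KO, and the difference of responses was −2.31 ± 0.34 (adjusted p = 6.91e-05). Of 17 genes of amino acid synthesis and carbon supply 13 were tested, PCK2 alone was lower and 12 did not pass, and all 13 differences were below 0 with a median of −0.66. CTH, which makes cysteine from cystathionine, had 14.8, 14.8 and 14 CPM in azaC-treated DKO libraries and 6.83, 10.4 and 14.6 CPM in untreated ones, against 53.4, 34.5 and 40.7 CPM in azaC-treated RNF25 KO libraries and 9.66, 5.60 and 13.7 CPM in untreated ones. Its difference was −1.69 ± 0.48 (adjusted p = 0.397). The serine pathway genes PHGDH, PSAT1, PSPH and SHMT2 had differences of −0.73 ± 0.21, −0.66 ± 0.27, −1.12 ± 0.35 and −0.87 ± 0.28, and none passed. In the direct comparison all 4 were lower in azaC-treated DKO than in azaC-treated RNF25 KO cells, with log2 values of −0.71 for PHGDH, −0.80 for PSAT1, −1.27 for PSPH and −0.90 for SHMT2 (largest adjusted p = 0.0268). MTHFD2 and GPT2 had differences of −0.59 and −0.93, and BCAT1, ALDH18A1, GOT1, GLUL and MTHFD1L ran from −0.32 to −0.093. ASNS and PYCR1 had at most 1 count in any of the 12 libraries and ALDH1L2 and CBS had 0, so these 4 were not compared.

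Among amino acid transporters 3 genes had smaller azaC responses in the DKO, and 2 of them encode the subunits of the cystine-glutamate exchanger. SLC7A11, the exchanger's light chain (ENSG00000151012, chromosome 4, 138164097 to 138242349, minus strand), had 36.2, 38.7 and 30.1 CPM in azaC-treated DKO libraries and 65.6, 44 and 47.6 CPM in untreated ones, against 123, 126 and 147 CPM in azaC-treated RNF25 KO libraries and 47.5, 46.6 and 26.2 CPM in untreated ones. Of its exon length 8.97% lies under exons of the opposite strand. Its azaC-treated DKO libraries lay below all untreated DKO libraries and its azaC-treated RNF25 KO libraries above all untreated ones. The response in the DKO was −0.57 ± 0.25 and did not pass (adjusted p = 1), and the difference was −2.30 ± 0.35 (adjusted p = 7.45e-05). SLC3A2, the heavy chain shared by several exchangers (ENSG00000168003, chromosome 11, 62856102 to 62888875, plus strand), had 208, 255 and 276 CPM in azaC-treated DKO libraries and 200.1, 208 and 235 CPM in untreated ones, against 541, 498 and 469 CPM in azaC-treated RNF25 KO libraries and 209, 213 and 244 CPM in untreated ones. The difference of −0.98 ± 0.22 (adjusted p = 0.0405) was the smallest of the 13 and passed in 2 of the 12 fits without 1 library (adjusted p up to 0.288, without azaC-treated DKO replicate 1). SLC38A2, a sodium-coupled importer of small neutral amino acids (ENSG00000134294, chromosome 12, 46358189 to 46372867, minus strand), had 69.5, 87.9 and 59.5 CPM in azaC-treated DKO libraries and 70.4, 85.3 and 52.7 CPM in untreated ones, against 176, 195 and 206 CPM in azaC-treated RNF25 KO libraries and 70.9, 71.5 and 54.2 CPM in untreated ones. Its lowest azaC-treated RNF25 KO library was 2 times the highest of the others, and the difference was −1.50 ± 0.26 (adjusted p = 0.000936).

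All 16 transporters listed were tested, 3 were lower and 13 did not pass, with 15 differences below 0 and a median of −0.93. The glutamine and neutral amino acid carrier SLC1A5 had 76.1, 66.8 and 72.1 CPM in azaC-treated DKO libraries, against 136, 295 and 123 CPM in azaC-treated RNF25 KO libraries, where replicate 2 of RNF25 KO, the library that stood apart, was more than 2 times the other 2. Its difference was −1.19 ± 0.34 (adjusted p = 0.38). SLC6A9, a glycine importer, had 5.91, 7.03 and 4.90 CPM in azaC-treated DKO libraries and 5.46, 4.26 and 15.2 CPM in untreated ones, against 32.6, 43.7 and 25.4 CPM in azaC-treated RNF25 KO libraries and 7.25, 9.33 and 13.7 CPM in untreated ones, and a difference of −2.19 ± 0.62 (adjusted p = 0.392). SLC1A4 and SLC7A5, both carriers of neutral amino acids, had differences of −1.42 ± 0.41 and −0.88 ± 0.31 and did not pass (adjusted p = 0.43 and 0.784). In the direct comparison SLC1A5, SLC6A9, SLC1A4 and SLC7A5 were lower in azaC-treated DKO than in azaC-treated RNF25 KO cells, with log2 values of −1.38, −2.51, −1.37 and −0.95 (largest adjusted p = 0.0165). SLC38A1, a relative of SLC38A2, had 83.5, 178 and 134 CPM in azaC-treated DKO libraries, against 119, 151 and 124 CPM in azaC-treated RNF25 KO libraries. Its groups overlapped and its difference was −0.029 ± 0.40. SLC1A3, a glutamate importer, SLC7A6 and SLC43A1, carriers of basic and of branched-chain amino acids, and SLC7A1, the main importer of arginine, had −1.48, −1.21, −0.78 and −0.73. SLC36A1, a lysosomal exporter, was the transporter with a difference above 0 (0.39 ± 0.81).

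In the ER list HERPUD1 and XBP1 had smaller azaC responses in the DKO and the other 19 genes did not pass. HERPUD1, a membrane protein of ER-associated degradation (ENSG00000051108, chromosome 16, 56932048 to 56944863, plus strand), had 51.7, 55.6 and 39.2 CPM in azaC-treated DKO libraries and 51.2, 43.6 and 34.3 CPM in untreated ones, against 183, 149 and 175 CPM in azaC-treated RNF25 KO libraries and 58, 43.5 and 50.5 CPM in untreated ones. The difference was −1.56 ± 0.29 (adjusted p = 0.00334). XBP1, a transcription factor of the unfolded protein response (ENSG00000100219, chromosome 22, 28794555 to 28800597, minus strand), had 47.3, 70.3 and 42.7 CPM in azaC-treated DKO libraries and 51.2, 86.2 and 45.1 CPM in untreated ones, against 157, 182 and 137 CPM in azaC-treated RNF25 KO libraries and 42.7, 67.8 and 56.1 CPM in untreated ones. The counts do not separate its spliced and unspliced forms. The difference was −1.71 ± 0.37 (adjusted p = 0.0257), and it did not pass in 6 of the 12 fits without 1 library (adjusted p up to 0.412, without untreated DKO replicate 2). The 4 most abundant ER genes, CALR, CANX, HSPA5 and HSP90B1, which are chaperones of the ER lumen and membrane, had differences of −0.016 ± 0.28, 0.066 ± 0.20, 0.15 ± 0.23 and 0.27 ± 0.27. HSPA5, the main ER Hsp70, had 933, 795 and 707 CPM in azaC-treated DKO libraries and 894, 975 and 689 CPM in untreated ones, against 762, 839 and 738 CPM in azaC-treated RNF25 KO libraries and 1036, 925 and 760.3 CPM in untreated ones, and its 4 groups overlapped. The median of the 21 tested ER genes was 0.015.

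Of the enzymes that charge tRNA, 20 of 20 were tested, 0 passed, and 15 differences were below 0 with a median of −0.25. CARS1, which charges cysteine tRNA and is named CARS in the table, had 125, 127 and 146 CPM in azaC-treated DKO libraries and 126, 126 and 143 CPM in untreated ones, against 209.9, 375 and 217 CPM in azaC-treated RNF25 KO libraries and 103, 152 and 119.7 CPM in untreated ones. Its difference was −1.09 ± 0.27 (adjusted p = 0.175). The most abundant, KARS1, TARS1, NARS1 and GARS1, had 0.12, −0.25, −0.02 and −0.49. Of 21 eIF2 kinases, subunits and regulators 0 passed and the median was −0.016. EIF2S2, the beta subunit of eIF2, had 471, 404 and 474 CPM in azaC-treated DKO libraries, against 593, 734 and 586 CPM in azaC-treated RNF25 KO libraries, with a difference of −0.48 ± 0.18 (adjusted p = 0.784), and EIF2AK1, the heme-regulated kinase, had 0.021 ± 0.23. EIF2AK4 itself had 0.10 ± 0.32. Of 27 genes of ribosome collision and quality control 26 were tested, 0 passed and the median was 0.14. RACK1, TCF25, VCP and G3BP1 had −0.17, −0.17, 0.10 and 0.35.

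Of 17 genes of the BCL2 family and death receptors 16 were tested, 0 passed and the median was −0.45. PMAIP1, which encodes the pro-apoptotic protein NOXA, had 28.8, 46.4 and 39.2 CPM in azaC-treated DKO libraries and 28, 31.7 and 39.4 CPM in untreated ones, against 139, 104 and 120.0 CPM in azaC-treated RNF25 KO libraries and 34.6, 56.6 and 34.3 CPM in untreated ones. Its azaC-treated RNF25 KO libraries lay above all others, its difference was −1.31 ± 0.37 (adjusted p = 0.392), and it was lower in azaC-treated DKO than in azaC-treated RNF25 KO cells (−1.66 ± 0.26, adjusted p = 4.86e-05). MCL1, BCL2L1 and TNFRSF10B had differences of −0.27, 0.067 and −0.072. Of 21 immediate early genes 15 were tested and 0 passed, with a median of −0.32. JUN had 211, 122 and 153 CPM in azaC-treated RNF25 KO libraries and 19.3, 32.3 and 29.3 CPM in untreated ones, and a difference of −1.44 ± 0.67 (adjusted p = 0.866) beside its DKO values above. IER2 had 122, 124 and 104 CPM in azaC-treated DKO libraries and 109, 134 and 111 CPM in untreated ones, against 201, 254 and 201 CPM in azaC-treated RNF25 KO libraries and 118, 104 and 97.2 CPM in untreated ones, and a difference of −1.06 ± 0.30 (adjusted p = 0.38).

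Differences of heat shock chaperones lay mostly above 0, and no single gene passed. Of 15 tested, 14 differences were above 0 and 6 of 15 were higher at an unadjusted p under 0.05, where 2% of all genes were. The median was 0.57 and was not corrected for GC content. The list averaged −0.16 ± 0.21 (log2 CPM over untreated RNF25 KO, SD over 3 libraries) in azaC-treated DKO and −0.16 ± 0.32 in untreated DKO, against −0.66 ± 0.09 in azaC-treated RNF25 KO and 0 ± 0.33 in untreated RNF25 KO. Replicate 3 was the lowest library of each group, at −0.41 in azaC-treated and −0.54 in untreated DKO, and −0.75 in azaC-treated and −0.39 in untreated RNF25 KO. The p53 list was highest in replicate 3 of each group, at 0.59 and 0.37 in azaC-treated and untreated DKO and 0.69 and 0.53 in azaC-treated and untreated RNF25 KO. HSPA8, the constitutive cytosolic Hsp70, had 1262, 1238 and 879 CPM in azaC-treated DKO libraries and 1784, 1383 and 1028 CPM in untreated ones, against 676, 1022 and 625 CPM in azaC-treated RNF25 KO libraries and 1938, 1683 and 1172 CPM in untreated ones. It was lower with azaC in RNF25 KO (−1.04 ± 0.24, adjusted p = 0.0188) and did not pass in the DKO (−0.31 ± 0.23, adjusted p = 1). Its azaC groups overlapped and the difference was 0.73 ± 0.33 (adjusted p = 0.83). HSP90AB1, HSP90AA1 and HSPD1, the abundant chaperones of cytosol and mitochondria, had 0.048, 0.33 and 0.45. HSPA1A, the inducible Hsp70, was chosen after its values were seen. It had 299, 269 and 103 CPM in azaC-treated DKO libraries and 486, 393 and 113.01 CPM in untreated ones, against 86, 92.3 and 64.2 CPM in azaC-treated RNF25 KO libraries and 486, 386 and 138 CPM in untreated ones, with a difference of 1.48 ± 0.70 (adjusted p = 0.871), and replicate 3 was the lowest library in each group. Its copy HSPA1B is nearly identical in sequence, so the split of reads between them is uncertain.

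In the other lists SLC7A11, named above, was the only member to pass. Median differences were −0.32 for 15 NRF2 targets, −0.11 for 14 p53 targets, 0.057 for 19 cholesterol genes, 0.048 for 18 pyrimidine and nucleoside genes and −0.15 for 76 ribosomal protein genes. The pyrimidine and nucleoside list covers the enzymes that handle cytidine analogues and includes DNMT1, the methyltransferase that azaC in DNA traps. DNMT1 had 446, 362 and 485 CPM in azaC-treated DKO libraries, against 482, 228 and 448 CPM in azaC-treated RNF25 KO libraries, with a difference of 0.33 ± 0.27. Among p53 targets MDM2, the ubiquitin ligase of p53, was highest in replicate 3 of all 4 groups, with 116, 102 and 215 CPM in azaC-treated DKO libraries, against 97.9, 104 and 171 CPM in azaC-treated RNF25 KO libraries. The 13 mitochondrial mRNAs had a median of 0.26, and azaC-treated RNF25 KO replicate 2 stood at −1.37 against untreated RNF25 KO where the other 2 azaC-treated RNF25 KO libraries stood at 0.18 and −0.0092.

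The 11 genes next in order of p did not pass, and 10 of them had differences below 0. PPP1R16A, a regulatory subunit of protein phosphatase 1, had 11.1, 5.63 and 10.5 CPM in azaC-treated DKO libraries and 21.2, 10.9 and 15.2 CPM in untreated ones, against 23, 34.5 and 13.3 CPM in azaC-treated RNF25 KO libraries and 9.66, 7.46 and 6.23 CPM in untreated ones. Its untreated DKO libraries lay above its untreated RNF25 KO libraries, so both treated and untreated levels enter its difference of −2.41 ± 0.58 (adjusted p = 0.13). The non-coding RNA LINC00662 had 20.7, 15.5 and 16.8 CPM in azaC-treated DKO libraries and 23.9, 22.3 and 24.1 CPM in untreated ones, against 64.5, 30.5 and 40.7 CPM in azaC-treated RNF25 KO libraries and 22.5, 19.9 and 14.3 CPM in untreated ones, and a difference of −1.65 ± 0.41 (adjusted p = 0.179). MED25, a Mediator subunit, had −3.02 with 3.70, 3.52 and 4.20 CPM in azaC-treated DKO libraries, against 9.64, 38.1 and 13.3 CPM in azaC-treated RNF25 KO libraries. ERFE, the hormone erythroferrone, TUBE1, epsilon-tubulin, RGMB, a co-receptor of bone morphogenetic proteins, and the unnamed transcript AC016831.5 had −1.95, −2.54, −1.84 and −2.56. Of exon length, 52.6% of PPP1R16A, 45.6% of RGMB and 18.7% of MED25 lie under exons of the opposite strand.

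The 5 genes of smallest p among those with a larger azaC response in the DKO rested on few counts and none passed. HOXC10, a homeobox gene, had 1, 0 and 4 counts in azaC-treated and 0 in all untreated DKO libraries, against 0 in all azaC-treated and 1, 0 and 6 in untreated RNF25 KO libraries. SYT6, a synaptotagmin, had 7, 2 and 2 counts in azaC-treated and 2, 7 and 4 in untreated DKO libraries, against 0 in all azaC-treated and 7, 9 and 2 in untreated RNF25 KO libraries. SYT11, another synaptotagmin, had 2, 1 and 1 counts in azaC-treated and 0 in untreated DKO libraries, against 0 in azaC-treated and 0, 0 and 5 in untreated RNF25 KO libraries. FCF1P8 had 10, 10 and 5 counts in azaC-treated and 0, 3 and 11 in untreated DKO libraries, against 0 in all azaC-treated and 1, 3 and 5 in untreated RNF25 KO libraries. HMGB1P39 had 10.3, 12 and 14 CPM in azaC-treated DKO libraries and 2.05, 5.68 and 8.25 CPM in untreated ones, against 5.93, 2.41 and 3.81 CPM in azaC-treated RNF25 KO libraries and 6.44, 18 and 5.61 CPM in untreated ones. FCF1P8 and HMGB1P39 are pseudogenes whose reads can be shared with their parent genes, and the smallest adjusted p of the 5 was 0.38.

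Between azaC-treated DKO and azaC-treated RNF25 KO cells 79 genes passed, 0.713% of those tested, 73 lower and 6 higher in the DKO. The count was 30 without azaC-treated DKO replicate 2 and 176 without azaC-treated RNF25 KO replicate 1. These counts were not corrected for GC content, since the fits made for that lost the library sizes, as the last section states. The split with a replicate block, given in the last section, was less one-sided. This comparison shares its libraries with the difference of responses, and all 13 genes passed in it. Of the 73 lower genes 39 are in the lists, with 5 of 11 transcription factors, 8 of 20 effectors, 8 of 13 synthesis genes, 7 of 16 transporters, 4 of 20 tRNA synthetases and 2 of 21 ER genes. All 3 DKO libraries lay below all 3 RNF25 KO libraries for 7.75% of genes tested, and for 7 of 11 transcription factors, 14 of 20 effectors, 8 of 13 synthesis genes, 11 of 16 transporters and 2 of 21 ER genes. Among the other lists the count was 33 of 76 ribosomal protein genes, 6 of 15 NRF2 targets and 7 of 20 tRNA synthetases. The lists differ in level and length of their genes, and these counts are a description. Between untreated DKO and untreated RNF25 KO cells 0 genes passed, 0%, in edgeR and in limma-voom and 1 in DESeq2, with 325 at an unadjusted p under 0.05. For the 13 genes the untreated difference ran from −0.66 for CEBPB to 0.39 for SLC7A11, with no unadjusted p under 0.05. MAP2, a neuronal microtubule protein and the tested neural marker, had 17, 7.74 and 6.30 CPM in azaC-treated DKO libraries and 16.4, 8.53 and 8.89 CPM in untreated ones, against 5.19, 0 and 0.635 CPM in azaC-treated RNF25 KO libraries and 1.61, 3.11 and 0 CPM in untreated ones. It was higher in the DKO with azaC (2.65 ± 0.67, adjusted p = 0.0431), and untreated it was 2.76 ± 0.67 (adjusted p = 0.57), while its difference of responses was −0.11. The 6 neural markers together had 14 to 35 counts per library in azaC-treated and 16 to 30 in untreated DKO, against 6 to 11 in azaC-treated and 1 to 8 in untreated RNF25 KO, and TUBB3 and GFAP were at 0 in all 12.

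In cells that have RNF25 the azaC responses of the 13 genes had the same sign of difference, and 1 of them passed. The difference of azaC responses of GCN2 KO minus AAVS1 cells, which shares no library with the DKO comparison, was below 0 for 13 of the 13 genes, where it was below 0 for 48.9% of all genes tested. It ran from −3.73 for CHAC1 to −0.22 for SLC3A2 with a median of −1.55. Of the 13 genes 10 had an unadjusted p under 0.05, as had 280 of all 11078 genes tested, in either direction. SESN2 was the 1 gene called over all genes, 0.00903%, with 63.8, 95.1 and 56.3 CPM in azaC-treated and 74.1, 71.9 and 59.1 CPM in untreated GCN2 KO libraries, against 162, 168 and 201 CPM in azaC-treated and 58.5, 49.9 and 62.3 CPM in untreated AAVS1 libraries. That is a difference of −1.57 ± 0.26 (adjusted p = 0.00231). DDIT4 had 14.6, 31.7 and 6.33 CPM and 13.1, 13.6 and 4.67 CPM in GCN2 KO, against 102, 79.7 and 81.9 CPM and 19.8, 5.49 and 8.99 CPM in AAVS1, azaC before untreated in each. Its difference was −2.26 ± 0.62 (adjusted p = 0.901). DDIT3, STC2 and PCK2 had −1.72 ± 0.45, −1.55 ± 0.35 and −1.56 ± 0.38, and did not pass. TSC22D3, XBP1 and SLC3A2 had −0.75 ± 0.41, −0.66 ± 0.37 and −0.22 ± 0.22, the 3 with an unadjusted p over 0.05. Untreated AAVS1 replicate 2 had the most negative slope on GC content of all libraries, and without it 1 gene passed. This comparison was not corrected for GC content.

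Whether the 2 GCN2 differences themselves differ was tested as the DKO minus RNF25 KO difference minus the GCN2 KO minus AAVS1 difference. No gene passed, 0%, in edgeR, DESeq2 or limma-voom, with 320 genes at an unadjusted p under 0.05. All 13 values were below 0, but the 13 were chosen on 1 term of this contrast, so nothing is read from that count. SESN2 had −1.07 ± 0.36, DDIT4 −2.37 ± 0.83 and CHAC1 −1.75 ± 1.43, and a p that misses the threshold does not show that the 2 backgrounds respond alike. Median list values on the AAVS1 background were −0.53 for transcription factors, −0.37 for effectors, −0.25 for synthesis genes, −0.18 for transporters and 0.076 for heat shock chaperones, where all genes had 0.0096.

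**Figure D3:**
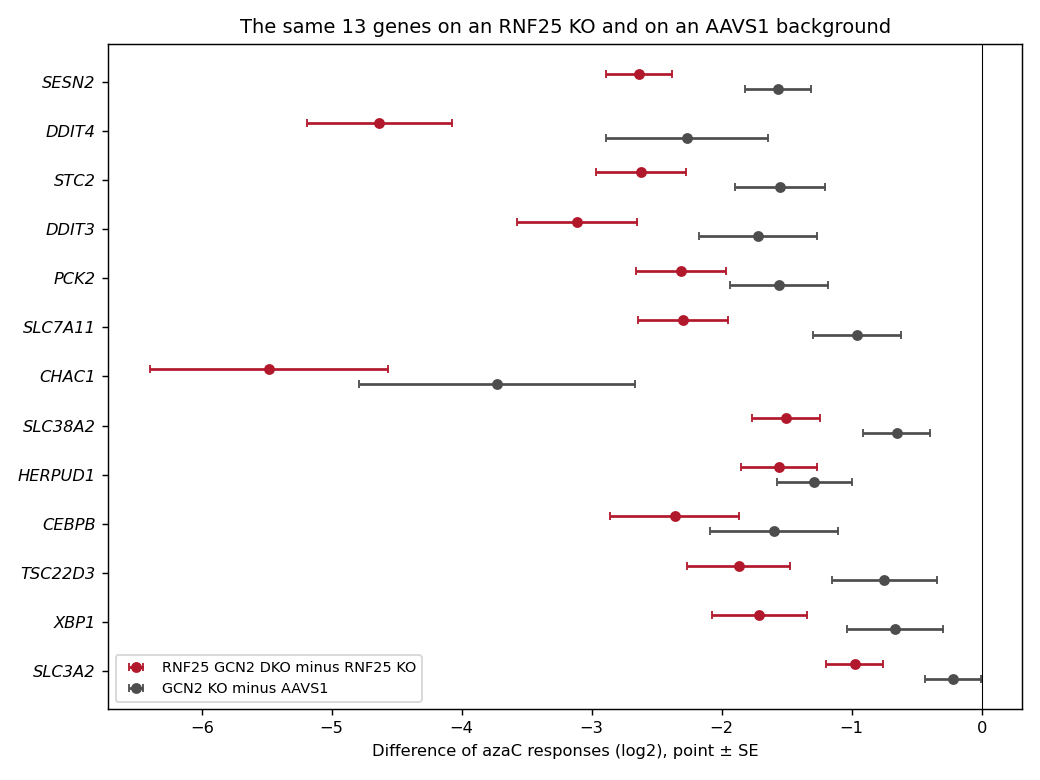
Difference of azaC responses (log2, points ± SE) of the 13 genes for RNF25 GCN2 DKO minus RNF25 KO (red) and GCN2 KO minus AAVS1 (grey), from separate libraries. All 26 points lie below 0, and those of the AAVS1 background lie nearer to 0 for each gene. The 13 genes were chosen on the red values, so nothing is read from the grey points lying nearer to 0.

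Leaving out each of the 12 libraries in turn gave 9 to 15 called genes. SESN2, DDIT4, STC2, DDIT3, PCK2, SLC7A11, SLC38A2 and HERPUD1 passed in 12 of 12 such fits, and CHAC1 in 11 of 12. CEBPB and XBP1 passed in 6, TSC22D3 in 5 and SLC3A2 in 2. Without azaC-treated RNF25 KO replicate 2, the library that stood apart, 11 genes passed, 10 of them among the 13, and CEBPB, XBP1 and SLC3A2 did not (adjusted p = 0.102, 0.115 and 0.0802).

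**Figure D4:**
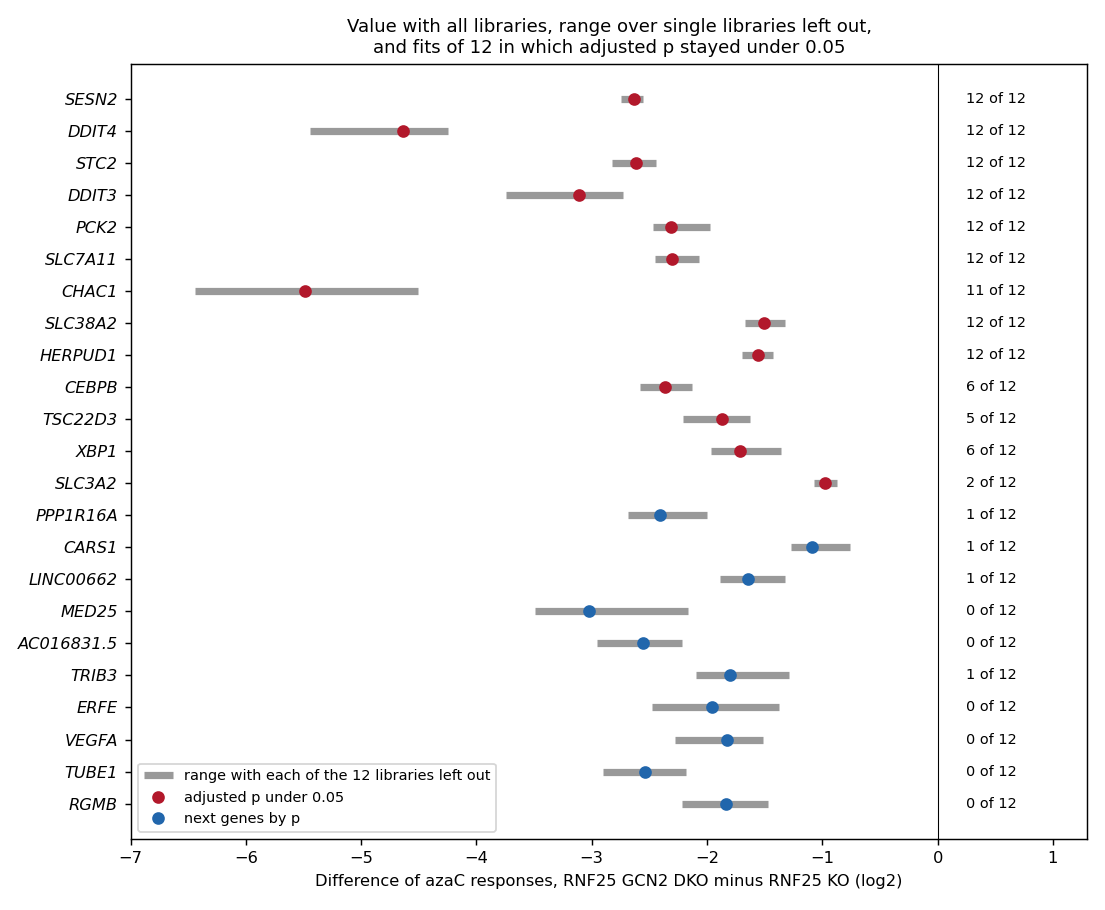
Difference of azaC responses (log2, RNF25 GCN2 DKO minus RNF25 KO) of the 13 genes that passed (red) and the 10 next genes with a difference below 0 (blue), with the range over fits that left out 1 of the 12 libraries (grey) and, at the right, the number of those fits in which the adjusted p was under 0.05. No range reaches 0, and the count falls from 12 of 12 for SESN2 to 2 of 12 for SLC3A2, and is 0 or 1 for the other 10.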

How the data were processed

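PolyA RNA of HAP1 cells was sequenced and read out as counts per gene; the kit was CORALL mRNA-Seq V2 as the labels' protocols state. Per the submitters' processing notes, the authors used STAR 2.7.10b, HTSeq 0.9.1 and the GRCh38 genome, and deposited raw counts per gene for 45 libraries. Not given in the sources used here are the annotation release, the strand setting and whether molecular identifiers were used. Totals ran from 1278486 to 2478875 counts in the 12 libraries, so counting error alone is large for genes of a few counts.

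Counts were fitted with edgeR 4.0.16 (R 4.3.3) by the quasi-likelihood F test, with 1 mean for each of 15 groups over all 45 libraries, TMM scaling and a low-count filter (minimum count 10), which left 11078 genes. All adjusted p-values in the text are from this fit with Benjamini-Hochberg adjustment over these genes, unless another fit is named, and the SE is the log2 value over the root of F. Called means an adjusted p under 0.05. CPM were taken over TMM-scaled library sizes of the tested genes, and log CPM with a prior count of 2.

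Genes named are those called in the difference of responses, the next by p up to 24, the 5 of smallest p with a positive difference, EIF2AK4 and RNF25, list members that passed, any member of the stress response, amino acid and transporter lists, and the 4 most abundant members of other lists. HSPA1A lies outside this rule, as does each gene said in the text to be chosen after its values were seen, and MAP2, JUN, ISL2, GDF15, AGPAT5 and HSPA8 are named as parts of counts. The members and lists were chosen with earlier results of these data known. 345 genes of the 21 lists were tested. Alternatives were DESeq2 1.42.0, limma-voom 3.58.1, DESeq2 size factors, no filter, fewer libraries, a replicate block, GC-corrected offsets and each library left out. The fits with GC-corrected offsets did not keep library sizes with their libraries, and their results are not used. Promoter sequences are from RefSeq (GRCh38.p14), and gene positions and exon overlaps from a GENCODE annotation of GRCh38.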

Additional observations from a re-analysis of the deposited data

Results flagged for a closer look

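For 13 genes the azaC response differed between RNF25 GCN2 DKO and RNF25 KO by a direct test of the difference (edgeR), each lower in the DKO. The log2 differences were −2.64 for SESN2, −4.63 for DDIT4, −2.62 for STC2, −3.11 for DDIT3, −2.31 for PCK2, −2.30 for SLC7A11 and −5.48 for CHAC1. They were −1.50 for SLC38A2, −1.56 for HERPUD1, −2.36 for CEBPB, −1.87 for TSC22D3, −1.71 for XBP1 and −0.98 for SLC3A2. With 3 libraries per group, single values far from the rest of their group were not tested for.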

How the results depend on the processing

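The count of genes whose azaC responses differed, 13 in the edgeR fit, was 15 in DESeq2, 11 in limma-voom and 13 with DESeq2 size factors. It was 9 with the compared libraries alone and 9 to 15 with 1 library left out. Without a filter on low counts it was 31, with 27 lower and 4 higher. SESN2, DDIT4, STC2, DDIT3, PCK2, SLC7A11 and SLC38A2 passed in 21 of 21 alternatives, a number that includes the fits with GC-corrected offsets described below. In limma-voom CEBPB (adjusted p = 0.106) and TSC22D3 (0.0677) did not pass. With the compared libraries alone CEBPB, TSC22D3, XBP1 and SLC3A2 did not (adjusted p = 0.0581 to 0.222), and without a filter SLC3A2 did not (adjusted p = 0.168). In the fits with GC-corrected offsets the library sizes were not matched to their libraries, so counts were not scaled for depth. The median difference of all genes was −0.57 there. Nothing on GC content is read from these fits, and no valid GC-corrected fit was made.

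The difference of EIF2AK4 changed sign, and passed in none of these: it was −0.54 with GC-corrected offsets, −0.48 with these and the replicate block, and −0.19 to 0.34 with 1 library left out, below 0 without azaC-treated DKO replicate 2 (−0.19) and without azaC-treated RNF25 KO replicate 3 (−0.032). The cause was not tested.

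Other counts moved more. With no filter the DKO response had 1 gene, the RNF25 KO response 110, the azaC-treated comparison 173, the untreated one 4, the GCN2 KO minus AAVS1 difference 6 and the difference of the 2 GCN2 differences 1. With the compared libraries alone they were 26 for the RNF25 KO response, 29 for the azaC-treated comparison and 0 for GCN2 KO minus AAVS1. DESeq2 gave 1 for the untreated comparison and 3 for GCN2 KO minus AAVS1. For GCN2 KO minus AAVS1 the count was 2 without eS31 K113R untreated replicates 2 and 3. With 1 library left out the RNF25 KO response had 29 (without its azaC replicate 2) to 90 genes (without its azaC replicate 1), the azaC-treated comparison 30 (without DKO replicate 2) to 176 (without RNF25 KO replicate 1), the untreated comparison 0 to 1 and GCN2 KO minus AAVS1 1 to 5.

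Libraries share a replicate number in the labels, and nothing says what it marks. Over 18 pairs of same-numbered libraries from 2 groups, deviations from the group means correlated at −0.044 to 0.31, over 0.1 in 13 pairs. Of 12 libraries 11 correlated best with their own number, a hint of shared effects from the data and not the design. The main fit has no block because pairing was taken only where every pair correlated over 0.1. That rule does not show that same-numbered libraries are independent. With the replicate block the difference of responses had 15 genes, the RNF25 KO response 97 (17 lower, 80 higher with azaC), the azaC-treated comparison 196 (130 lower, 66 higher), the untreated one 1 and GCN2 KO minus AAVS1 3, and the heat shock median was 0.52. With the replicate block and GC-corrected offsets CEBPB (adjusted p = 0.0572) and SLC3A2 (0.0979) did not pass, and the counts were 31 for the difference of responses, 200 for the azaC-treated comparison, 1 for the untreated one, 0 for GCN2 KO minus AAVS1 and 3 for the difference of the 2 GCN2 differences. Depth limits genes of few counts, such as RNF25 and ASNS, which could not be compared.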
